A study of Mus musculus with 2 samples.

Results

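Genes of heme synthesis and iron handling were examined in pre CFU-E, progenitors early in the red cell lineage, taken from bone marrow that was recovering from 5-FU. The 35 genes were chosen by name, for what their products do, out of 20660 genes that the array's probes could be named for. Earlier results of these data were known when they were chosen. The study profiled 1 pool of WT mice and 1 pool of ESAM-KO mice on 1 array each, with 3 mice in a pool by the study's methods. All mice were C57BL/6, 8 to 12 weeks old by the methods, and all had received 120 mg/kg 5-FU and were taken on day 8. By the methods, WT mice came from a supplier or from the heterozygous matings that gave the knockouts, and which of these were profiled is not given in the sources used here. The drug, an antimetabolite that kills dividing cells, was thus shared by both groups. ESAM-KO mice lack ESAM, an adhesion molecule of endothelial and hematopoietic stem cells, in every tissue, so the marrow around the progenitors was knockout too. The cells were sorted by flow cytometry as endoglin+, CD150+ and c-Kit+ cells without lineage markers or Sca1, with CD41 low and FCgRII/III absent or low.

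Developing red cells make more heme than any other cell. Synthesis starts and ends in the mitochondrion, where ALAS2 carries out the first, rate-setting step and ferrochelatase puts iron into the finished ring, while the middle steps run in the cytosol. Iron enters through the transferrin receptor, is reduced and released from endosomes, and is carried into the mitochondrion or stored in ferritin. Iron regulatory proteins bind elements in the mRNAs of this system when iron is scarce, which protects transferrin receptor mRNA and holds back translation of ferritin and ALAS2. An array measures mRNA and does not show that second effect.

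Erythroid promoters are bound by GATA1, whose usual motif is AGATAA or TGATAA, and by KLF1, which binds CACCC. The 250 bases before the start were available for 28 of the 35 genes, as 44 windows from RefSeq on GRCm38.p6. Windows are printed for Alas2 and Tfr2, whose ESAM-KO signals were lowest relative to WT, and for Tfrc and Flvcr1, whose signals were highest, where a gene with several entries is shown by its first. They read 5′ to 3′ along the gene, and capitals mark the letters of either motif on either strand.

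Alas2, chrX:150547167-150547416, plus strand: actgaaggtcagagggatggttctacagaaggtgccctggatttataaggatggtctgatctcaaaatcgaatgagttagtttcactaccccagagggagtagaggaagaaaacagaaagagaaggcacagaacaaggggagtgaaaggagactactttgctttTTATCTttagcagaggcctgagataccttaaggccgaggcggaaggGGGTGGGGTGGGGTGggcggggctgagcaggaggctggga

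Tfr2, chr5:137569590-137569839, plus strand: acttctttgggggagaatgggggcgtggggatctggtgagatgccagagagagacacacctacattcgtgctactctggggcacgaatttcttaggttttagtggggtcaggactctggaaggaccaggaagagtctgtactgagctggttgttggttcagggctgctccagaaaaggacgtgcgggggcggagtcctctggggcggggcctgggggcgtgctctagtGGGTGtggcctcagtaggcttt

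Tfrc, chr16:32608646-32608895, plus strand: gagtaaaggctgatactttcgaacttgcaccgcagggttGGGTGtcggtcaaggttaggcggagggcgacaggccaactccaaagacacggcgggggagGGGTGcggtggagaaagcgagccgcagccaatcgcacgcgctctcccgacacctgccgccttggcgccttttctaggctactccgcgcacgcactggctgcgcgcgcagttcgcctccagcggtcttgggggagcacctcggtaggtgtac

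Flvcr1, chr1:191026191-191026440, minus strand: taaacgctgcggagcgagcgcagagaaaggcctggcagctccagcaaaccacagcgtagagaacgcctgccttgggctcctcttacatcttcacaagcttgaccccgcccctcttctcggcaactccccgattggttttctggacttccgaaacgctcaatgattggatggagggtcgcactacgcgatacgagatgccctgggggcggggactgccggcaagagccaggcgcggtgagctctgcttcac

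The Alas2 window held AGATAA once, on the opposite strand as TTATCT, beginning 86 bases before the start, and CACCC at 3 places, read here as GGGTG. The first of 3 Tfr2 windows held CACCC at 1 place, and its last entry held TGATAA 61 bases before that start. The first of the Tfrc windows held CACCC at 2 places, and the Flvcr1 window held neither motif. Over the 28 genes, AGATAA or TGATAA lay in a window of 5, namely Alas2, Tfr2, Steap3, Cpox and Uros. That was 5 of 44 windows, or 11.4%, against 16.6% of 32851 windows over all genes. CACCC lay in 26 of the 44 windows (59.1%), against 52.0% of all windows. Such matches describe letters only.

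With 1 array per genotype there was no test, p-value or spread between samples, and a difference compares these 2 pools. Values are processed signals, the brightness of a probe after the scanner software took off background, in arbitrary units. Each log2 ratio is ESAM-KO over WT after both arrays were set to their 75th percentile, which was 201.4 in WT and 251.1 in ESAM-KO. This scaling lowered every ratio by 0.32. The error given is the scanner software's own error, which does not cover mice, cell sorts or amplification of the RNA. A gene was called past 2-fold, and a looser 1.5-fold was added after the data were seen. Signals of different probes cannot be set against each other.

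The sorted cells carried their lineage's markers. All 11 erythroid progenitor genes, Gata1, Klf1 and Epor among them, were well above background on both arrays, with a median log2 ratio of -0.34 (-0.02 without scaling), and 1 was past 2-fold, Nfe2 at -1.34. The 11 include Kit, Eng and Slamf1, which encode the sort markers c-Kit, endoglin and CD150 and so are no separate sign of lineage. Slamf1 was dim, with 17.8 in WT and 23.0 in ESAM-KO, where signals above background began at 12.6 and 13.2. Esam itself had a weak signal, 27.4 in WT and 20.6 in ESAM-KO (log2 ratio -0.73 ± 0.31), and where its probe lies relative to the deleted part is not known here. Markers of other cells moved between the pools. All 12 neutrophil genes were lower by more than 2-fold in ESAM-KO, and their summed level went from 298.1 to 40.0 times the array's 75th percentile. Late erythroid genes were lower by more than 2-fold in 3 of 7 (Slc4a1, Trim10 and Epb42), with a list median of -0.19 (0.13 without scaling) and a summed level of 113.1 in WT, most of it from Slc4a1, and 36.4 in ESAM-KO. Of 7 B cell genes 4 were lower by more than 2-fold, and 1 was after normexp background correction with quantile normalization. Of 8 megakaryocyte genes 2 were lower, both known only as bounds (Gp9 and Ppbp), and 1 was higher (Vwf), while without scaling 0 were lower and 2 higher. Of 7 mast cell, basophil and eosinophil genes 4 had a ratio, 3 of them lower and 1 higher by more than 2-fold. The lineage antibodies named in the methods include Mac1 and Gr1, which mark neutrophils and macrophages, B220 of B cells and Ter119 of late erythroid cells, so the gate was set to leave such cells out, and the methods state that purity was checked after sorting. In pooled RNA, fewer cells of a type and less RNA per cell cannot be told apart.

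Of the 35 heme and iron genes, 33 gave a signal that the software flagged well above background on each of the arrays. Hfe and Flvcr2 were not on either array and have no ratio. Alas2 was past 2-fold, lower in ESAM-KO, and no other of the 33 was past 2-fold in either direction. That is 3.03% of the 33, against 15.4% of 14136 genes with a ratio over the whole array, of which 6.99% were higher and 8.43% lower. Past 1.5-fold there were 13 of the 33, or 39.4%, against 33.2% of all genes. The 4 higher genes were Tfrc, Flvcr1, Slc40a1 and Ireb2, where 15.6% of all genes were higher. The 9 lower genes were Alas2, Tfr2, Steap3, Urod, Abcb6, Blvra, Abcb10, Hmox1 and Ppox, where 17.6% of all genes were lower. The median ratio was -0.02, beside 0.00 over all genes, and 18 of the 33 lay below 0, beside 7059 of the 14136 genes.

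These genes are brightly measured ones, and bright genes differed less throughout the array. In the brightest quartile, by mean signal, of genes above background on both arrays, which held 15 of the 33, 2.63% of genes were past 2-fold and 13.8% past 1.5-fold. Of those 15, none was past 2-fold and 6 were past 1.5-fold. In the next quartile, with 12 of the 33, 10.8% of all genes were past 2-fold, and Alas2 was the 1 of the 12.

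**Figure D1:**
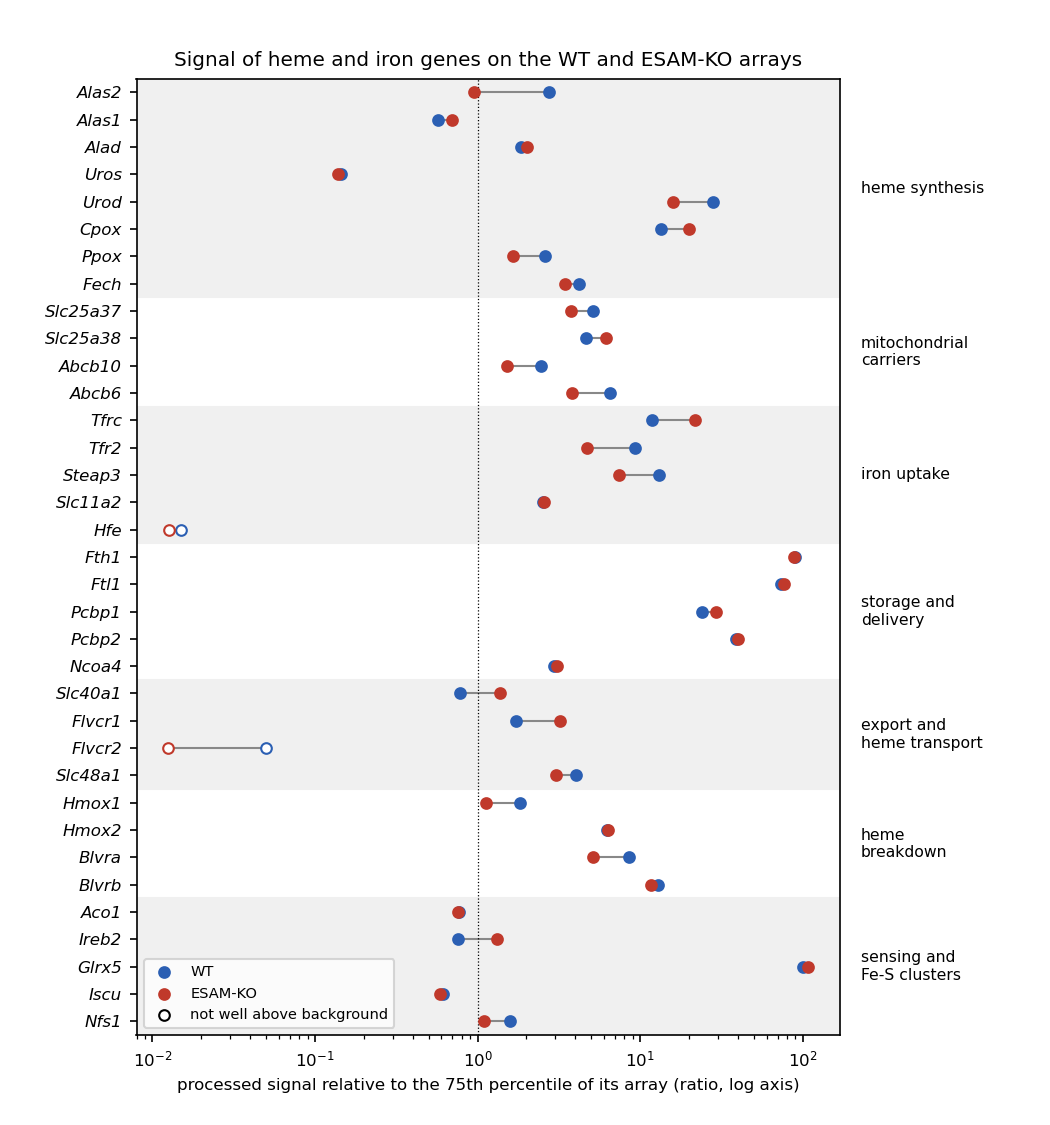
Processed signal of each heme and iron gene divided by the 75th percentile of its array, on a log axis, for the WT (blue) and ESAM-KO (red) arrays, with genes grouped by role and open points where a signal was not well above background. Among genes above background the gap is widest for Alas2, a log2 ratio of -1.53, and the points of Hfe and Flvcr2 are open. Positions of different genes cannot be compared, since each has its own probe.

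Among the 8 enzymes that build heme, the first erythroid step stood lowest. Alas2, the erythroid 5-aminolevulinate synthase (NM_009653), gave a signal of 551.6 in WT and 237.7 in ESAM-KO. That is a log2 ratio of -1.53 ± 0.21, or 2.89-fold lower. It was past 2-fold under each of 12 ways of processing the arrays, the reported one included, from -1.66 to -1.21. Alas2 has 1 probe, well above background, so the filter, outlier and probe-mean settings could not change its -1.53. Alas1, the synthase that other tissues use for the same step, had 115.7 in WT and 175.6 in ESAM-KO. Its ratio was 0.28 ± 0.21, and its second probe gave 0.29. Scaling by the median took the Alas1 ratio to 0.15, within that error of 0, and no scaling gave 0.60. Of the late erythroid markers 3 of 7 were lower by more than 2-fold in the same pool, as given above, and their part in the Alas2 value was not tested.

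The middle and final enzymes did not move as a block. Alad, which joins the precursors into a pyrrole, had 372.9 in WT and 508.2 in ESAM-KO (0.13), and Uros, which closes the ring, had 29.3 and 34.8 (-0.07 ± 0.29), so both lay within the scanner error of 0. Urod, which trims the ring's side chains, was 1.75-fold lower, with 5622 in WT and 3996 in ESAM-KO (-0.81). Cpox, the next enzyme in line, was 1.49-fold higher, with 2691 and 5008 (0.58). Neighbouring steps of the pathway therefore had ratios of opposite sign, and both kept their sign under all 12 settings. Urod and Cpox each have 1 probe, whose ratio the filter, outlier and probe-mean settings could not change. Ppox, which follows Cpox, was 1.55-fold lower, with 519.8 in WT and 417.1 in ESAM-KO (-0.64). Fech, the ferrochelatase, had nearly equal signals before scaling, 852.4 in WT and 860.7 in ESAM-KO, and -0.30 after it. Over the 8 enzymes the median was -0.19, which turned to 0.13 without scaling, and 5 of 8 were below 0.

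The carriers that serve the mitochondrion leaned lower in ESAM-KO. Their median ratio was -0.57 over 4 genes, none past 2-fold, and it stayed below 0 without scaling, at -0.25. Abcb6, a porphyrin transporter, had 1307 in WT and 954.3 in ESAM-KO (-0.77). Abcb10, a mitochondrial transporter needed for heme synthesis that binds mitoferrin-1, had 498.1 and 381.5 (-0.70). Slc25a37, which is mitoferrin-1 and brings iron into the mitochondrion, had probes that disagreed in size. Its brighter probe gave 1028 in WT and 944.2 in ESAM-KO (-0.44), and its other probe gave 752.5 and 288.3 (-1.70 ± 0.20), which is past 2-fold. Slc25a38, which imports glycine for the ALAS reaction, was the exception, with 941.3 in WT and 1544 in ESAM-KO (0.40).

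**Figure D2:**
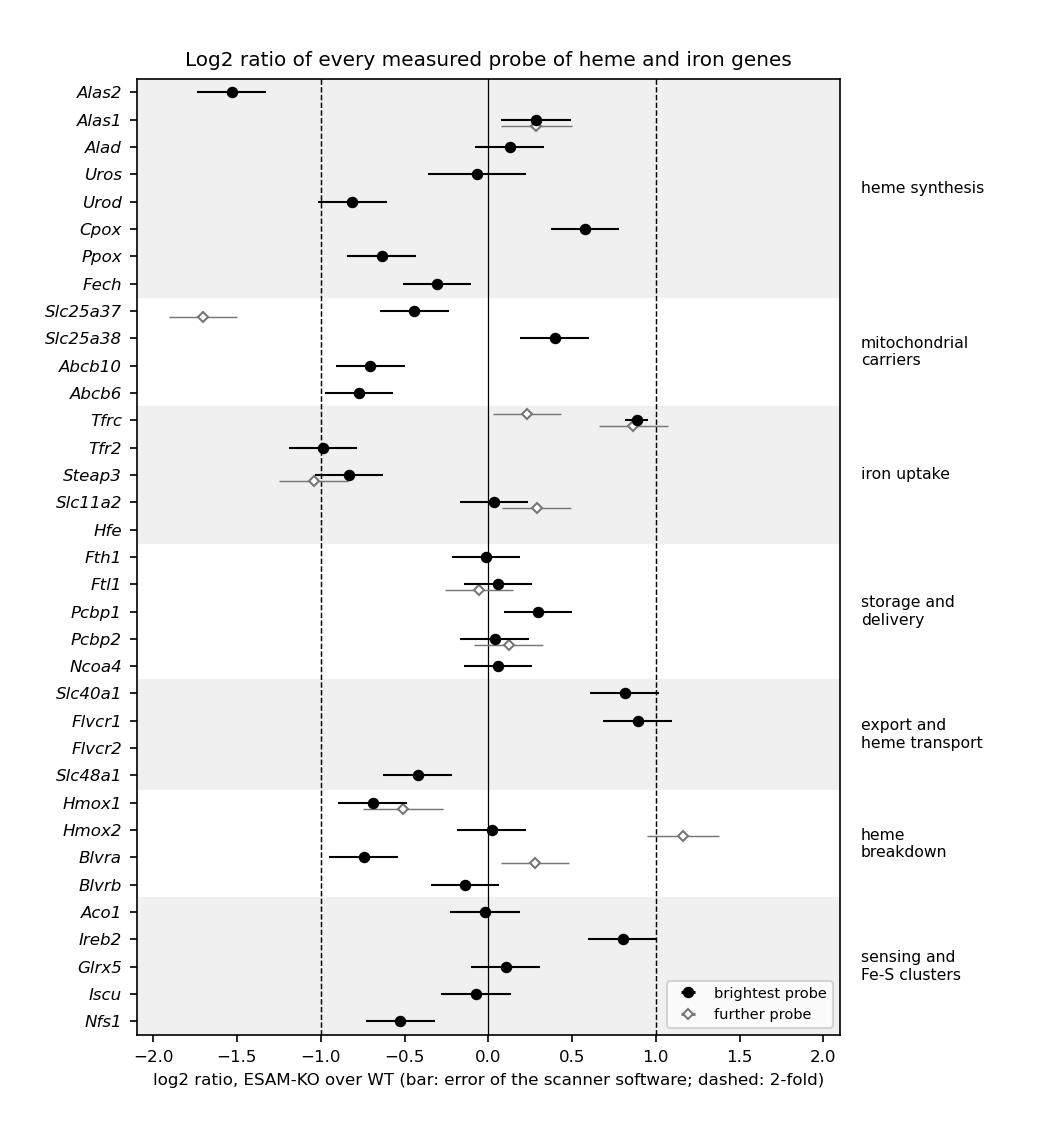
Log2 ratio of ESAM-KO over WT for the 33 genes with a ratio, grouped by role, with bars for the scanner error and dashed lines at 2-fold. Small marks are further probes of the same gene. Alas2 at -1.53 lies past the lower line, and further probes of Slc25a37, Steap3 and Hmox2 lie past 2-fold where the gene's brightest probe does not.

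The 2 transferrin receptors went in opposite directions. Tfrc, transferrin receptor 1, the main way in for iron, had 2374 in WT and 5466 in ESAM-KO, 1.85-fold higher (0.89 ± 0.07). It was printed on the array at 10 spots, of which 9 were used because the software marked 1 as an outlier. The 9 spots lay between 2141 and 2594 in WT and between 5220 and 5739 in ESAM-KO, with no overlap, and their ratios ran from 0.79 to 0.97. These spots share 1 RNA pool per genotype, so their closeness speaks for the measurement and not for the mice. A second Tfrc probe gave 506.6 and 1152 (0.87), and the remaining one gave 259.1 and 378.9 (0.23). Tfr2, transferrin receptor 2, which erythroid progenitors carry in complex with the erythropoietin receptor, had 1878 in WT and 1183 in ESAM-KO. It was 1.98-fold lower (-0.99), just inside 2-fold. Scaling by the median took Tfr2 past 2-fold, to -1.12, and no scaling left it at -0.67.

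The other steps of uptake were lower or near 0. Steap3, the endosomal reductase of erythroid cells, had 2642 in WT and 1850 in ESAM-KO (-0.83), and its second probe gave 2250 and 1362 (-1.04), past 2-fold. Slc11a2, the transporter DMT1 that takes iron out of the endosome, had 506.4 and 646.7 (0.03), with 0.29 at its second probe. Hfe, a partner of the transferrin receptors, had 3.0 in WT and 3.19 in ESAM-KO, not well above background on either array.

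Genes of iron storage and delivery had ratios near 0. None of the 5 was past 1.5-fold, and their median was 0.06, with a sign that turned to -0.07 under scaling by the median. Fth1, the ferritin heavy chain, had 18082 in WT and 22336 in ESAM-KO (-0.01), and Ftl1, the light chain, had 14814 and 19227 (0.06). Ferritin genes have near-identical processed copies in the genome, so these signals may include other transcripts. Ncoa4, which hands ferritin over for breakdown, had 598.6 and 777.2 (0.06). Pcbp1 and Pcbp2 carry iron to ferritin and other proteins, and had 4816 in WT against 7384 in ESAM-KO (0.30), and 7840 against 10033 (0.04).

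Exporters were among the higher genes. Flvcr1, which carries heme out of the cell, had 348.2 in WT and 805.4 in ESAM-KO, 1.86-fold higher (0.89). Slc40a1, ferroportin, the iron exporter, had 157.6 and 345.6, 1.76-fold higher (0.81). Without scaling both passed 2-fold, at 1.21 and 1.13, and after normexp with quantile normalization Slc40a1 stood at 0.56. Slc48a1, which moves heme out of the endosome or lysosome, had 817.2 in WT and 760.7 in ESAM-KO (-0.42). Flvcr2, a relative of Flvcr1, had 10.1 and 3.16, not well above background on either array.

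Breakdown of heme had a median of -0.42 over 4 genes, with none past 2-fold, and the median was -0.10 without scaling and -0.19 with the mean of a gene's probes. Hmox1, the inducible heme oxygenase, had 367.3 in WT and 283.9 in ESAM-KO (-0.69), and its second probe gave -0.51. Hmox2, the constitutive form, had 1253 and 1584 (0.02) at its brightest probe, while a dimmer one gave 76.5 and 213.5 (1.16), past 2-fold. Blvra, a biliverdin reductase, had 1721 in WT and 1281 in ESAM-KO (-0.74), and its second probe pointed the other way, with 360.0 and 544.6 (0.28). Blvrb, the other reductase, had 2596 and 2936 (-0.14). For Hmox2 and Blvra the ratio depended on the probe. Slc40a1 and Hmox1 are also active in macrophages that recycle iron, and of 14 macrophage genes 5 were not well above background on either array (C1qc, Cd163, Mertk, Mrc1 and Timd4), 1 was higher by more than 2-fold (C1qa) and 1 lower (Vcam1). The summed macrophage level was 35.2 in WT and 31.7 in ESAM-KO. Most of each sum came from Csf1r, with 6554 in WT and 7310 in ESAM-KO (-0.16). The gate was set against Mac1+ cells, and the part of any macrophage RNA in the Slc40a1 and Hmox1 values was not tested.

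The iron sensors differed from each other. Ireb2, iron regulatory protein 2, had 152.3 in WT and 331.1 in ESAM-KO, 1.74-fold higher (0.80). Aco1, which is iron regulatory protein 1 when it lacks its iron-sulfur cluster, had 154.1 and 189.4 (-0.02). Among the 35 genes, messages known to hold iron-responsive elements include Tfrc at 0.89, Slc40a1 at 0.81 and Slc11a2 at 0.03. Ftl1 at 0.06, Fth1 at -0.01 and Alas2 at -1.53 are others. For ferritin, Slc40a1 and Alas2 the elements act on translation, which an array does not show, so these ratios do not test iron regulation. Of the genes that build iron-sulfur clusters, Nfs1, the cysteine desulfurase, had 319.3 in WT and 276.7 in ESAM-KO (-0.52). Iscu, the scaffold, had 123.6 and 146.7 (-0.07), and Glrx5, which passes clusters on and is needed for heme synthesis, had 20200 and 27059 (0.10).

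**Figure D3:**
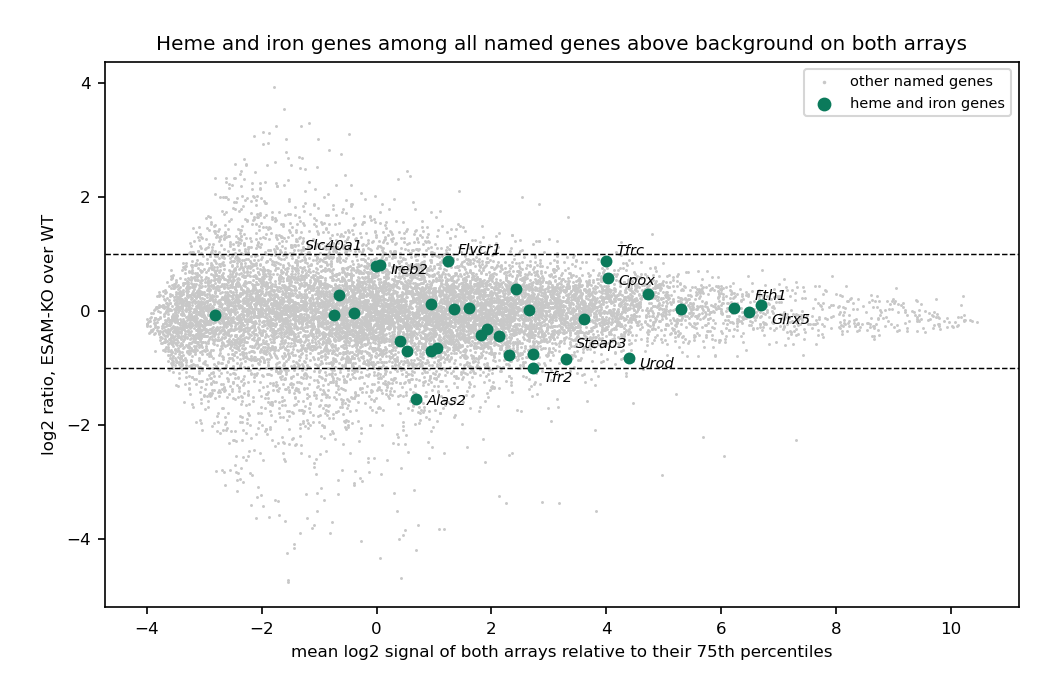
Log2 ratio of ESAM-KO over WT against the mean scaled log2 signal for the named genes well above background on both arrays, in grey, with the 33 heme and iron genes in colour and dashed lines at 2-fold. The spread of grey points narrows to the right, where 15 of the 33 lie in the brightest quartile.

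How far 2 probes of a gene differed sets a limit on any ratio that rests on 1 probe. Over 3056 genes with 2 measured probes, the ratios differed by a median of 0.41, and 20.0% differed by more than 1. Among the 10 heme and iron genes with several probes the median difference was 0.20, and 3 differed by more than 1, namely Slc25a37 (1.26), Hmox2 (1.14) and Blvra (1.02). Of the genes past 1.5-fold, Alas2, Urod, Tfr2, Abcb6, Abcb10, Ppox, Flvcr1, Slc40a1 and Ireb2 were each measured by 1 probe. The median scanner error of the 33 ratios was 0.20, and 12 of the 33 lay within their own error of 0.

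Other genes of heme and iron metabolism, from a list of 50 on the array, gave 41 ratios with a median of 0.01. Past 2-fold, 2 were higher and 3 lower, or 12.2% of the 41 against 15.4% of all genes. Erfe, erythroferrone, a hormone that erythroblasts release to lower hepcidin, had 51.6 in WT and 134.9 in ESAM-KO (1.07 ± 0.07). Mcoln1, a lysosomal channel that lets iron through, had 80.7 and 216.2 (1.10). Both fell short of 2-fold when the arrays were scaled by the median, at 0.94 and 0.97, and after normexp with quantile normalization, at 0.56 and 0.69. Lcn2, which binds iron-carrying siderophores, had 9604 in WT and 1057 in ESAM-KO (-3.50), and Hp, which binds free hemoglobin, had 826.5 and 209.5 (-2.30). Neutrophils store both proteins in granules, and Lcn2 is also on the neutrophil list that was lower throughout. The sort gated against Gr1+ and Mac1+ cells, and the part of any that remained in the 2 values was not tested. Iba57, an iron-sulfur cluster assembly factor, had 246.1 and 104.0 (-1.56).

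**Figure D4:**
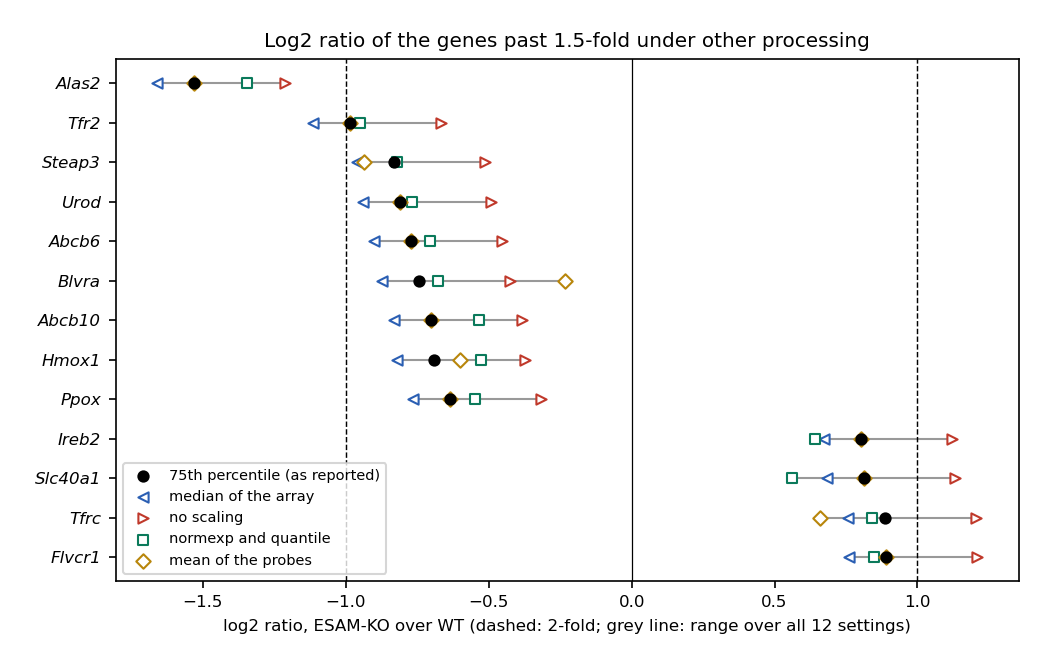
Log2 ratio of ESAM-KO over WT under 12 processing settings for the 13 genes past 1.5-fold, with the reported value marked and dashed lines at 2-fold. Alas2 stays past the lower line in all 12, and Tfrc, Flvcr1, Slc40a1 and Ireb2 pass the upper line only without scaling. The filter, outlier and probe-mean settings could not move Alas2, which has 1 probe.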

How the data were processed

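By the methods, RNA of sorted pre CFU-E was first amplified as cDNA. The product was hybridised to 1-colour Agilent arrays, 1 for WT and 1 for ESAM-KO, which shared a slide and a scan. The deposited values are intensity values that the authors read with Agilent Feature Extraction 10.10.1.1, as a background-subtracted processed signal with its software error and flags. The deposited spot flags and gene annotation (other columns) were used as given. The series value table served as an alternative.

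Of 59305 non-control spots, 254 outlier spots were left out, and none was saturated. The log2 processed signal minus the log2 75th percentile over the non-control spots of its array was averaged over the spots of a probe. A probe passed if over 50% of its spots carried the flag for a signal well above background, as did 57.3% of all spots in WT and 61.1% in ESAM-KO. Signals above background began at 12.6 and 13.2. The number of arrays limits the precision. A gene above background on 1 array alone was given a bound. Probes were named through their RefSeq accession with the GRCm38.p6 gene table, which named 27235 of 55680 probes (48.9%), and a gene was represented by its brightest probe. Every heme and iron gene is named. Other lists are given by counts, with only some of their medians and of their genes past 2-fold. The genes and lists were chosen with earlier results of these data known, and 1 marker gene is not reported here. Alternatives covered scaling, background correction, filters, probes and thresholds. Analyses used Python 3.11.15, numpy 2.4.6, pandas 2.3.3, matplotlib 3.10.9, R 4.3.3 and limma 3.58.1, and the procedure was tested on simulated data.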

Additional observations from a re-analysis of the deposited data

How the results depend on the processing

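No paired analysis was possible because there was 1 array for WT and 1 for ESAM-KO. Without scaling between the arrays, 4 heme and iron genes were higher by more than 2-fold (Tfrc, Flvcr1, Slc40a1 and Ireb2) in place of 0, and their median was 0.30 in place of -0.02, as the median of all genes moved to 0.31. The number lower by more than 2-fold was 2 under scaling by the median (Alas2 and Tfr2), 2 with no filter on dim probes (Alas2 and Flvcr2) and 2 with the mean of a gene's probes (Alas2 and Slc25a37), in place of 1. It was 0 at 3-fold and 9 at 1.5-fold, and 4 were higher at 1.5-fold. Over all genes, 2179 were past 2-fold, 720 after normexp with an offset of 50 and quantile normalization together, 4108 with no filter on dim probes, 821 at 3-fold and 4694 at 1.5-fold. Of the genes past 2-fold, 54.7% were lower, which became 66.8% with the median, 28.8% without scaling, 59.4% with quantile normalization alone and 67.4% with normexp and quantile normalization together. The number of heme and iron genes below 0 ran from 12 without scaling to 25 with the median. Of 363 ratios under 11 alternatives, 324 moved by less than the scanner error and 39 by more. The 39 include every one of the 33 genes without scaling, a shift of 0.32 shared by all. The 324 include ratios that could not move. The filter settings changed none, keeping outlier spots changed only Tfrc, and probe means could change only genes with several probes. Ratios near 0 changed sign under some settings. With 1 array a genotype, no setting replaces a second pool of mice. Dim genes are limited by background, as Hfe and Flvcr2 show.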
